A study of Schizosaccharomyces pombe with 16 samples.

Results

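The subtelomeric gene clusters are 112 of the 7014 genes in the count table, taken by systematic name from 10 cosmids at the ends of chromosomes I and II of the fission yeast Schizosaccharomyces pombe. They are the genes whose names start with SPAC212 or SPAC977 (left end of chromosome I, 30 genes), SPAC750, SPAC186 or SPAC869 (right end of chromosome I, 27 genes), SPBC1348, SPBPB21E7 or SPBPB10D8 (left end of chromosome II, 30 genes), and SPBCPT2R1 or SPBPB2B2 (right end of chromosome II, 25 genes). The rule left out eno102, cat1 and mug180, which stand in the same cosmids. In the annotation 99 of the 112 are protein-coding and 13 are pseudogenes, so the clusters are not protein-coding throughout.

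Subtelomeres lie between the telomere repeats and the unique body of a chromosome. In fission yeast they are packed in part as heterochromatin, through the histone methyltransferase Clr4, the chromodomain protein Swi6 and the telomere-binding shelterin complex, and many of their genes are nearly silent in rich medium. They hold families of recently duplicated genes, and a large share of their other genes code for transporters, secreted or cell surface proteins and enzymes that use alternative nutrients. Subtelomeric genes are known to be among those that respond to nutrient limitation, nitrogen starvation in particular.

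Total RNA and polysome fractions (mRNAs carrying several ribosomes, taken from sucrose gradients) were sequenced from WT cells (972, h−) and from eIF2α.S52A cells (h−, carrying eIF2α.S52A marked with Ura4 in a ura4-D18 background). The mutation puts alanine in the place of the serine that eIF2 kinases phosphorylate. Both strains were grown in YES, a rich medium, at 30 °C to exponential phase (0 h) and for 6 h more, when they began to enter stationary phase. The 8 groups of strain, time and fraction held 2 libraries each, replicate 1 from experiment A and replicate 2 from experiment B. The strains differ by more than the point mutation, and differences in the number or makeup of subtelomeric copies between them cannot be told apart from differences in expression.

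The libraries held 11279417 to 20522997 counts. Genes of M cells, the mating type of h− strains (mfm1, mfm2, mfm3, mam1 and mam2), together had 328 to 4030 counts in WT libraries and 104 to 1164 in those of eIF2α.S52A cells, and the P cell genes map2 and map3 had 53 to 478 and 38 to 400. At 6 h, replicate 2 of eIF2α.S52A cells stood apart from replicate 1. Genes with ribosomal protein symbols (140 genes) held 21.5% of its counts in total mRNA against 14.97%, and 44.04% against 29.8% in polysome fractions, while the WT libraries at 6 h held 12.1 and 12.8%, and 28.8 and 26.1%. In the 0 h libraries of both strains these genes held 22.5 to 24.1% in total mRNA and 43.8 to 50.8% in polysome fractions. In this share replicate 2 of eIF2α.S52A cells at 6 h lay nearer to the 0 h libraries than to the other 6 h libraries. The part of this in the results was not tested. Numbers of calls without that library are given for the time change in eIF2α.S52A cells and the strain difference at 6 h. Values of single genes without it are given for only some of the calls that changed.

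The members nearest to the chromosome ends were hardly detected. Of the 112 members, 10 had no count in any of the 16 libraries, among them the predicted transporters SPBPB10D8.05c, SPBPB10D8.06c and SPBPB10D8.07c, and the short chain dehydrogenases SPAC977.08 and SPBC1348.09. A count of 0 over all libraries allows up to 3 counts in all. This bound does not cover reads lost in counting where copies are near-identical, and how such reads were treated is not known here. Only 65 members had enough counts to be tested. The 47 others had a median of 7 counts summed over the 16 libraries and at most 73. When genes were ranked from each end, the first 10 at the 4 ends were 40 members with a median of 21.5 summed counts, of which 10 were tested, and the 72 members farther in had a median of 596.5, of which 55 were tested. These sums are not scaled to gene length.

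Members of gene families were in part too low to test. The order SPAC977.02 to SPAC977.09c runs through descriptions in the same order as SPBC1348.03 to SPBC1348.10c: a 5Tm protein, a methyltransferase, a membrane transporter, a conserved fungal family protein, a DUF999 protein, a cell surface glycoprotein, a short chain dehydrogenase and a phospholipase. Part of the order recurs in SPBPB2B2.14c to SPBPB2B2.19c and in SPAC750.02c to SPAC750.06c. The descriptions of the table name 10 DUF999 genes and 8 5Tm genes, of which 5 and 4 were tested. Reads from near-identical copies can be split between them or lost in counting, so the values of these families, and of other members with copies at another end, are uncertain, and protein identity between copies was not computed here.

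The clusters took a larger share of the counts in every library at 6 h than in any at 0 h. Together the 112 members held 0.145 and 0.107% of the counts in WT total mRNA at 0 h and 0.647 and 0.561% at 6 h. In eIF2α.S52A cells the share was 0.168 and 0.160% at 0 h and 0.718 and 0.370% at 6 h. Polysome fractions gave 0.0677 and 0.0540% against 0.518 and 0.330% in WT cells, and 0.0636 and 0.0626% against 0.401 and 0.243% in eIF2α.S52A cells. The 6 h libraries did not overlap the 0 h libraries in either fraction, and the lowest share at 6 h came from replicate 2 of eIF2α.S52A cells. A few genes made up most of these counts: the 5 leading members held 57.8 to 73.4% of them in a library. SPAC977.14c, an aldo/keto reductase and the leading member of all 8 libraries at 0 h, had 264 and 150.1 CPM in WT libraries at 0 h, 269 and 504 in those at 6 h, 371 and 318 in eIF2α.S52A libraries at 0 h, and 577 and 412 in those at 6 h in total mRNA, where CPM are counts relative to the effective library size. Within each strain both total mRNA values at 6 h were above both at 0 h, by little in WT replicate 1, and the change passed the test in neither strain.

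Gene by gene, a larger share of the members tested than of all genes tested rose from 0 h to 6 h. In WT polysome fractions, 29 of the 65 members tested were higher at 6 h and 3 were lower (edgeR quasi-likelihood test, Benjamini-Hochberg adjusted p under 0.05 over 6170 genes), where 8.57% of all genes tested were higher and 8.9% lower. The median log2 difference was 2.13 over the 65 members and −0.01 over all genes tested, or 2.03 with members that had no count in a group set at their bound. In total mRNA of WT cells 22 members were higher and 2 lower (6.0 and 6.01% of all genes), with a median of 1.31. In eIF2α.S52A cells, 11 members were higher and 1 lower in polysome fractions (3.4 and 3.58% of all genes), with a median of 0.93 or 0.88 at the bounds. In their total mRNA 11 were higher and none lower (2.12 and 0.746% of all genes), with a median of 0.96. With the 65 split by chromosome end, the members that rose in WT polysome fractions were 6 of 20 on the left and 7 of 17 on the right of chromosome I, and 10 of 13 on the left and 6 of 15 on the right of chromosome II. A member that passed the filter on low counts only through its values at 6 h had to differ, so these counts describe the 65 members and not all 112. The called members that passed only in this way were SPAC212.02, SPAC869.03c, SPAC869.06c, SPAC869.09, mel1, SPAC977.04, SPAC977.05c, SPBC1348.03, SPBPB21E7.02c, SPBPB21E7.10 and SPBPB2B2.07c. Their p-values for the time change are no support for a rise.

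**Figure D1:**
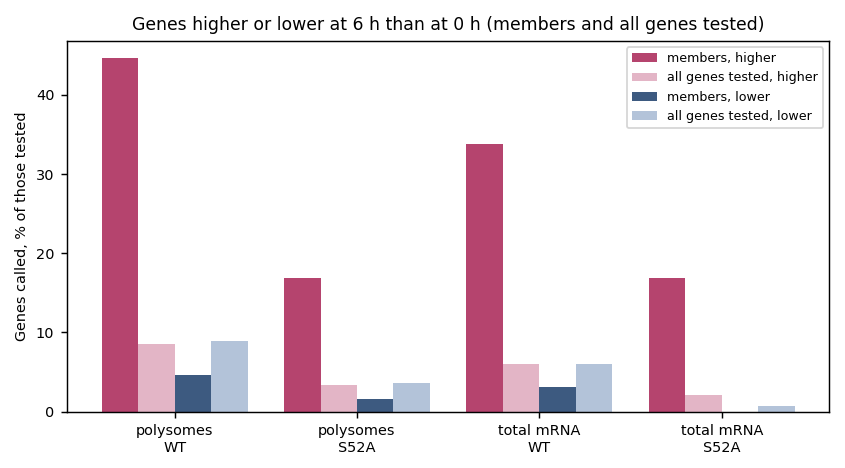
Share of genes called higher or lower at 6 h than at 0 h (y axis, % of genes tested; edgeR, adjusted p under 0.05) among the 65 members and among all 6170 genes, for each strain and fraction (x axis). The bars of members that were higher stand above those of all genes in the 4 comparisons, at 29, 11, 22 and 11 of 65 members from left to right.

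These counts depended on single libraries. In WT polysome fractions the 32 calls became 13 and 18 without replicate 1 or 2 at 0 h and 17 without either replicate at 6 h, and 11 members remained called in all 4 of these fits. For single calls of members below that were lost in this way, the highest adjusted p and the library left out are given. For genes outside the members no such values are given, so their calls are not shown to hold without single libraries. In WT total mRNA the 24 calls became 10 and 2 without replicate 1 or 2 at 0 h, and 9 and 13 without replicate 1 or 2 at 6 h. In eIF2α.S52A polysome fractions the 12 calls became 1 with replicate 1 at 0 h left out, 5 with replicate 2 at 0 h left out, 5 with replicate 1 at 6 h left out and 18 with replicate 2 at 6 h left out, the library that stood apart. In their total mRNA the 11 calls became 0 without either replicate at 0 h, 6 without 6 h replicate 1 and 14 without 6 h replicate 2. With the experiment as a block, eIF2α.S52A cells had 19 calls in polysome fractions and 20 in total mRNA.

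The rises overlapped between strains and fractions. All 11 members that rose in eIF2α.S52A polysome fractions but 1 were among the 29 that rose in WT polysome fractions, and the exception was SPAC977.05c. The same held in total mRNA, where 10 of the 11 were among the 22 of WT cells. In WT cells, 21 of the 22 members that rose in total mRNA also rose in polysome fractions, and the other was SPAC869.03c. Rises in total mRNA and polysome fractions are read from separate libraries of the same experiments. No overlap over all genes tested stands beside these counts, so they do not show a trait particular to the members. The 7 members that rose in both strains and both fractions were SPBPB2B2.08, SPAC977.18, SPBPB2B2.18, SPAC869.05c, SPBPB21E7.04c, mel1 and gal10. Without a test, all 4 libraries at 6 h lay above all 4 at 0 h for 28 members in total mRNA (43.1%, against 13.1% of all genes tested) and for 26 in polysome fractions (40%, against 10.6%). The reverse order held for 4 members in total mRNA (put4, SPAC977.11, SPBPB10D8.03 and pan5) and 3 in polysome fractions (put4, SPAC977.12 and SPBPB10D8.03), against 17.8 and 9.04% of all genes. Members that passed the filter on low counts only through libraries at 6 h had to be higher there. The shares of 43.1 and 40% therefore describe the members tested, and are in part fixed by the filter.

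**Figure D2:**
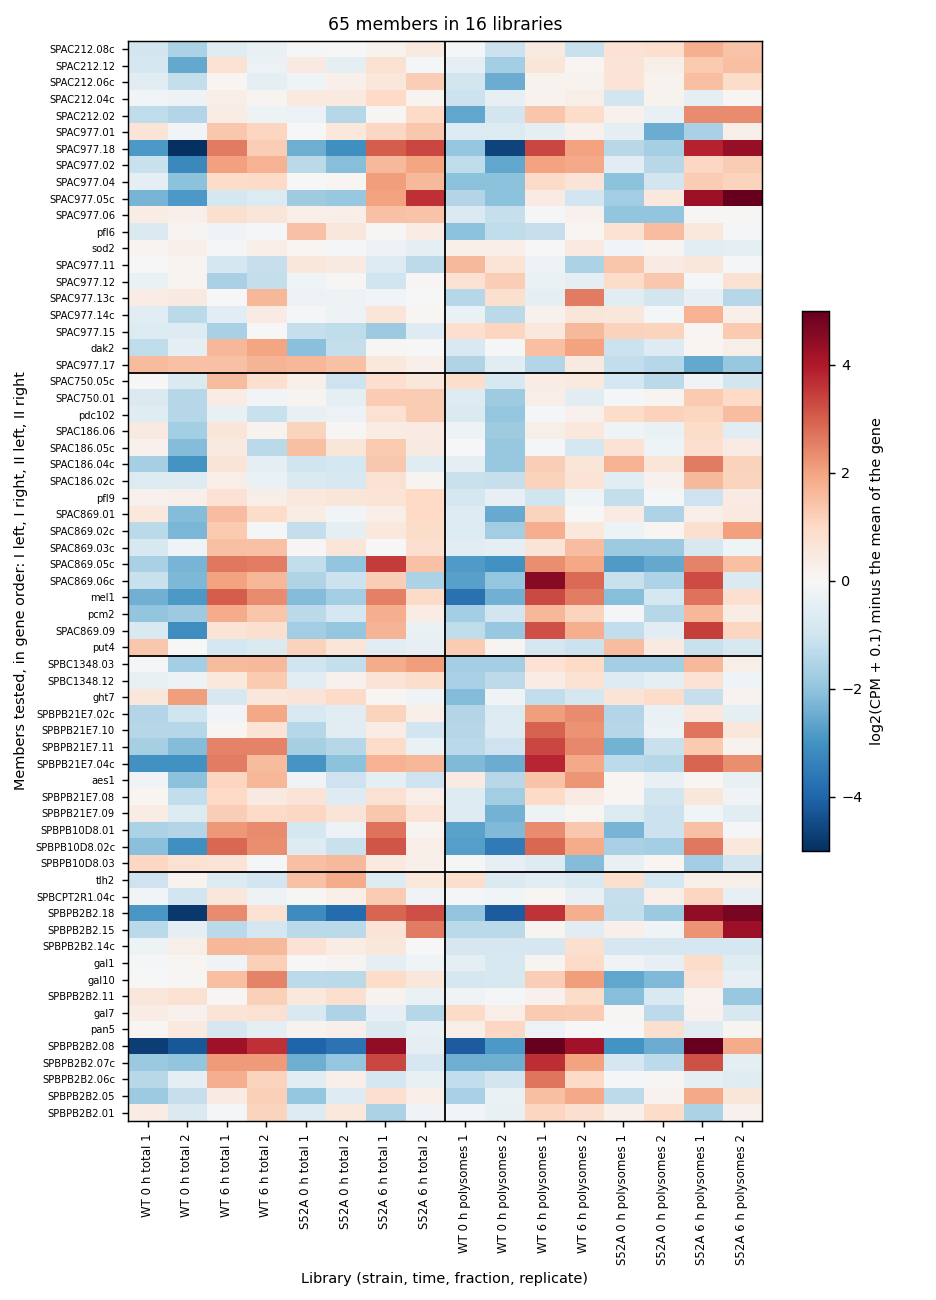
Level of the 65 members tested (rows, in gene order from each chromosome end) in the 16 libraries (columns, by strain, time, fraction and replicate). Colour gives log2(CPM + 0.1) minus the mean of the gene over the libraries. Rows such as SPBPB2B2.08, SPAC977.18 and SPAC869.05c turn from blue at 0 h to red at 6 h in both fractions, and SPBPB2B2.08 is paler in the second replicate of eIF2α.S52A cells at 6 h.

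SPBPB2B2.08, a conserved fungal protein with no role given in the table, had the largest rise common to both strains. In total mRNA it had 0.969 and 1.41 CPM in WT libraries at 0 h, 533 and 354 in those at 6 h, 1.64 and 2.07 in eIF2α.S52A libraries at 0 h, and 615 and 20.7 in those at 6 h. In polysome fractions it had 1.47 and 3.75 CPM in WT libraries at 0 h, 1947 and 514 in those at 6 h, 3.47 and 4.93 in eIF2α.S52A libraries at 0 h, and 993 and 101 in those at 6 h. It was low in all libraries at 0 h and high in all at 6 h, except that replicate 2 of eIF2α.S52A cells at 6 h reached far less than the others without falling back to the 0 h level. The log2 difference was 8.81 (SE 1.65, edgeR adjusted p = 0.00644) in polysome fractions and 8.52 (SE 1.64, adjusted p = 0.0116) in total mRNA of WT cells. It was 7.0 (SE 1.55, adjusted p = 0.0270) and 7.40 (SE 1.56, adjusted p = 0.0303) in eIF2α.S52A cells. Leaving out single libraries raised the adjusted p to as much as 0.0621 without WT 0 h polysome replicate 1, 0.109 without WT 0 h total replicate 2, 0.172 without eIF2α.S52A 0 h polysome replicate 1 and 0.256 without eIF2α.S52A 0 h total replicate 1.

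SPAC977.18, a conserved fungal protein, and SPBPB2B2.18, a Schizosaccharomyces-specific protein, rose in both strains and both fractions. Each lies between a pair of 5Tm genes, SPAC977.18 on the left end of chromosome I and SPBPB2B2.18 on the right end of chromosome II, and their reads may be shared if they are near-identical copies. SPAC977.18 had 5.46 and 0.646 CPM in WT libraries at 0 h, 242 and 95.3 in those at 6 h, 7.23 and 4.69 in eIF2α.S52A libraries at 0 h, and 331 and 405 in those at 6 h in total mRNA. SPBPB2B2.18 had 2.09 and 0.484 CPM in WT libraries at 0 h, 84.96 and 27.9 in those at 6 h, 1.77 and 1.03 in eIF2α.S52A libraries at 0 h, and 125 and 155 in those at 6 h. Both were higher in all 6 h libraries than in all 0 h libraries, and replicate 2 of eIF2α.S52A cells at 6 h was the highest of all, the opposite of SPBPB2B2.08. In polysome fractions the log2 differences of SPAC977.18 were 5.65 (SE 1.01, edgeR adjusted p = 0.00509) in WT and 5.66 (SE 0.99, adjusted p = 0.0108) in eIF2α.S52A cells. Those of SPBPB2B2.18 were 5.84 (SE 0.91, edgeR adjusted p = 0.00319) and 6.14 (SE 0.89, adjusted p = 0.00448). In total mRNA SPAC977.18 differed by 5.81 and 5.96, and SPBPB2B2.18 by 5.49 and 6.67, with adjusted p of 0.00826, 0.0114, 0.00591 and 0.00347. In WT polysome fractions both calls held without each library in turn. In eIF2α.S52A cells they reached 0.113 without eIF2α.S52A 0 h polysome replicate 1 and 0.0528 without eIF2α.S52A 0 h polysome replicate 1, and in total mRNA 0.0800 without WT 0 h total replicate 2, 0.0861 without WT 0 h total replicate 2, 0.169 without eIF2α.S52A 0 h total replicate 2 and 0.104 without eIF2α.S52A 0 h total replicate 2.

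**Figure D3:**
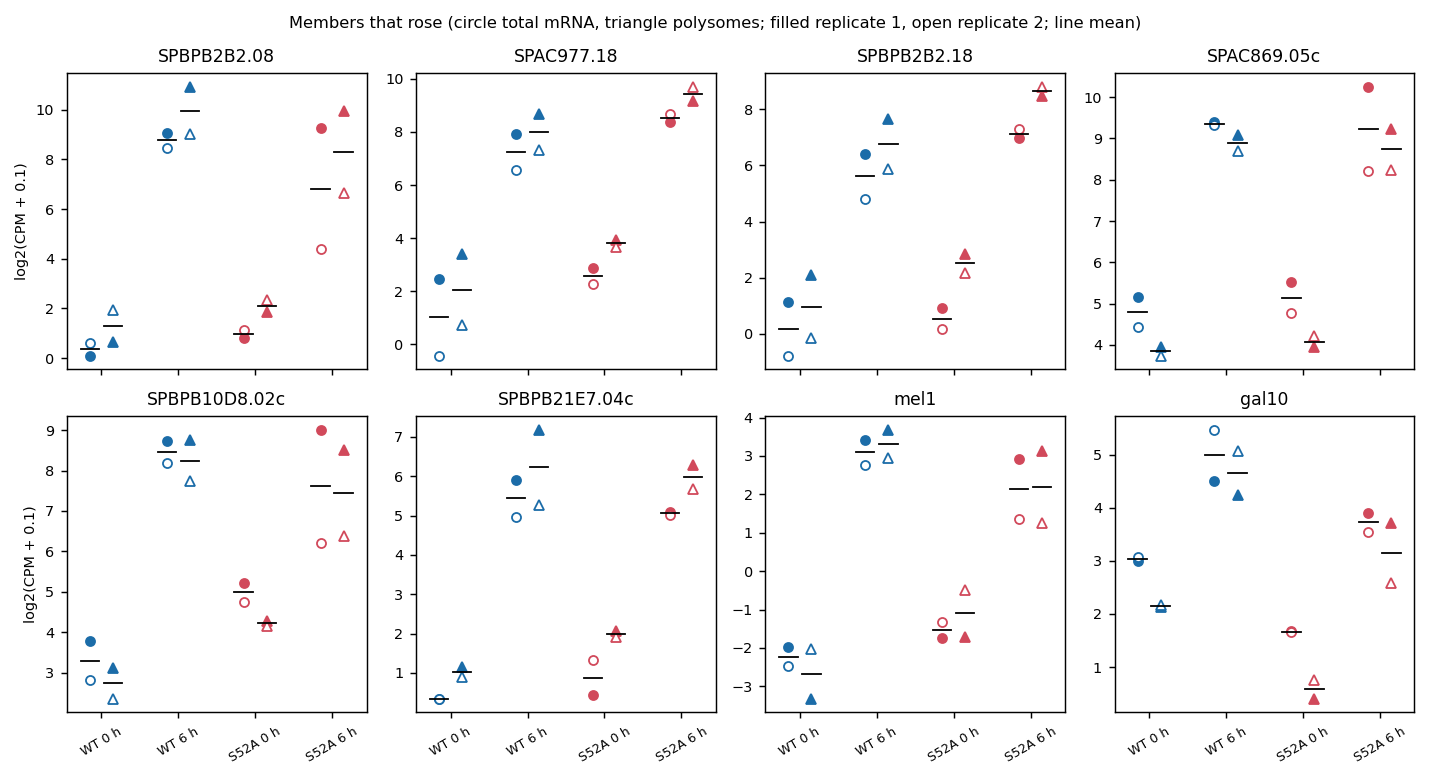
Level of 8 members that rose with time (panels), as log2(CPM + 0.1) on the y axis of each panel, by strain and time on the x axis. Circles are total mRNA and triangles polysome fractions, filled for replicate 1 and open for replicate 2, and lines are means of 2. In each panel the 6 h points lie above the 0 h points of the same strain, and the open symbols of eIF2α.S52A cells at 6 h hang low for SPBPB2B2.08, SPBPB10D8.02c and mel1.

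The descriptions of 3 members that rose in WT cells name sulfur compounds, a grouping made after their values were seen. SPAC869.05c (sul2) is a predicted sulfate transporter, SPBPB10D8.01 a predicted cysteine transporter, and its neighbour SPBPB10D8.02c a predicted arylsulfatase, an enzyme that frees sulfate from organic esters. SPAC869.05c had 35.4 and 21.7 CPM in WT libraries at 0 h, 674 and 640.1 in those at 6 h, 45.5 and 27.2 in eIF2α.S52A libraries at 0 h, and 1220.3 and 295 in those at 6 h in total mRNA. SPBPB10D8.02c had 13.6 and 6.90 CPM in WT libraries at 0 h, 424 and 291 in those at 6 h, 37.1 and 26.8 in eIF2α.S52A libraries at 0 h, and 516 and 74.3 in those at 6 h. SPBPB10D8.01 had 19.6 and 20.8 CPM in WT libraries at 0 h, 261 and 302 in those at 6 h, 31.5 and 48.1 in eIF2α.S52A libraries at 0 h, and 386 and 64.7 in those at 6 h. All 3 were higher in each library at 6 h than in any at 0 h, and lowest among the 6 h libraries in replicate 2 of eIF2α.S52A cells. SPAC869.05c differed by 5.07 (SE 0.63, edgeR adjusted p = 0.00118) in WT and 4.74 (SE 0.62, adjusted p = 0.00281) in eIF2α.S52A polysome fractions, and by 4.53 and 4.38 in total mRNA (adjusted p = 0.00223 and 0.00347). It was the only member whose polysome call held in both strains without each library in turn, and in total mRNA it reached 0.0528 without WT 0 h total replicate 2 and 0.0867 without eIF2α.S52A 0 h total replicate 2.

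The arylsulfatase gene differed by 5.60 (SE 0.96, edgeR adjusted p = 0.00449) in polysome fractions and 5.13 (SE 0.92, adjusted p = 0.00952) in total mRNA of WT cells, and by 3.59 (SE 0.87, adjusted p = 0.0332) and 3.21 (SE 0.84, adjusted p = 0.0618) in eIF2α.S52A cells, where the change in total mRNA passed only with the experiment as a block (adjusted p = 0.0115). The cysteine transporter gene differed by 4.37 (SE 0.81, edgeR adjusted p = 0.00616) and 3.80 (SE 0.78, adjusted p = 0.0135) in WT cells. In eIF2α.S52A cells its values were 2.42 and 2.50, with adjusted p of 0.0695 and 0.0953. Without 6 h replicate 2, the adjusted p of eIF2α.S52A cells became 0.0285 and 0.0140 for the transporter, and 0.00810 and 0.0112 for the arylsulfatase. The calls of the arylsulfatase gene reached 0.102 without WT 0 h total replicate 2 and 0.223 without eIF2α.S52A 6 h polysome replicate 1, and those of the transporter gene 0.0598 without WT 0 h polysome replicate 1 and 0.115 without WT 0 h total replicate 2.

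Of the genes of melibiose and galactose use, mel1 and gal10 rose in both strains and both fractions. mel1 codes for a secreted alpha-galactosidase (melibiase), and gal1 (galactokinase), gal10 (epimerase) and gal7 (uridylyltransferase) form the galactose cluster on the right end of chromosome II. mel1 had 0 to 7 counts in each library at 0 h and 23 to 278 at 6 h. It passed the filter on low counts only through libraries at 6 h, so the p-values of its time change are no support for a rise. In WT polysome fractions 2 counts in all at 0 h gave a ratio of 104 (95% interval 28.6 to 868). It rose by 6.16 (SE 0.89, edgeR adjusted p = 0.00330) on the log2 scale in total mRNA of WT cells and by 4.23 (SE 0.81, adjusted p = 0.0218) in eIF2α.S52A cells. In eIF2α.S52A polysome fractions the rise was 3.59 (SE 0.89, adjusted p = 0.0371). These calls reached 0.0704 without WT 0 h total replicate 2, 0.204 without eIF2α.S52A 0 h total replicate 1 and 0.238 without eIF2α.S52A 6 h polysome replicate 1.

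gal10 rose in both strains and both fractions while gal7 and gal1 passed in none. gal10 had 7.85 and 8.28 CPM in WT libraries at 0 h, 22.6 and 44.2 in those at 6 h, 3.09 and 3.06 in eIF2α.S52A libraries at 0 h, and 14.9 and 11.6 in those at 6 h in total mRNA. In polysome fractions it had 4.26 and 4.42 CPM in WT libraries at 0 h, 18.8 and 33.4 in those at 6 h, 1.23 and 1.60 in eIF2α.S52A libraries at 0 h, and 13.03 and 5.89 in those at 6 h. The 6 h libraries of each strain lay above its 0 h libraries, and the libraries of eIF2α.S52A cells lay below those of WT cells at the same time. The rises were 2.59 (SE 0.43, edgeR adjusted p = 0.00399) and 2.05 (SE 0.40, adjusted p = 0.0127) in polysome fractions and total mRNA of WT cells, and 2.71 (SE 0.51, adjusted p = 0.0141) and 2.10 (SE 0.42, adjusted p = 0.0257) in eIF2α.S52A cells. Outside WT polysome fractions, where its call held, gal10 reached 0.105 without WT 0 h total replicate 2, 0.118 without eIF2α.S52A 0 h polysome replicate 1 and 0.207 without eIF2α.S52A 0 h total replicate 2.

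dak2, a dihydroxyacetone kinase gene of glycerol use, rose in WT cells by 2.14 (SE 0.36, edgeR adjusted p = 0.00419) in polysome fractions and 2.66 (SE 0.36, adjusted p = 0.00223) in total mRNA, and both calls held without each library in turn. In eIF2α.S52A cells it rose by 1.60 (SE 0.36, adjusted p = 0.0377) in total mRNA, a call that reached 0.302 without eIF2α.S52A 0 h total replicate 1, and its value in polysome fractions was 1.04 (SE 0.37, adjusted p = 0.108), which passed with the block (0.0202). The pyruvate decarboxylase gene pdc102 (1 to 20 counts in total mRNA and 0 to 10 in polysome fractions) and the hexose transporter gene ght7 (4 to 44 and 0 to 6 counts) passed in no comparison. Of the 5 carbon enzyme genes listed, 3 were tested, and SPAC750.08c, a partial malic enzyme gene at the very end of its arm, had no count.

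Genes of nitrogen and amino acid use did not move as 1 group. Of the 7 listed, 6 were tested. put4, a predicted proline permease, had 71.9 and 28.8 CPM in WT libraries at 0 h, 15.3 and 17.1 in those at 6 h, 62.8 and 42.9 in eIF2α.S52A libraries at 0 h, and 19.1 and 21.3 in those at 6 h in total mRNA. It was lower in all 6 h libraries than in all 0 h libraries of both strains. It fell in WT cells, with a log2 difference of −1.76 (SE 0.47, edgeR adjusted p = 0.0252) in polysome fractions and −1.64 (SE 0.46, adjusted p = 0.0402) in total mRNA. In eIF2α.S52A cells it fell in polysome fractions, by −2.06 (SE 0.48, adjusted p = 0.0303), and its value in total mRNA was −1.39 (SE 0.46, adjusted p = 0.133). The L-asparaginase gene SPAC977.12 fell in WT cells, with −1.45 (SE 0.37, adjusted p = 0.0196) and −1.33 (SE 0.36, adjusted p = 0.0358), and had −0.76 and −0.28 in eIF2α.S52A cells, which did not pass (adjusted p = 0.216 and 0.724, and 0.0440 in polysome fractions with the block). Another asparaginase gene, SPBPB21E7.09, had 1.26 and 1.17 in WT cells, which passed only with the block (0.0180 and 0.0242). SPAC869.03c, a predicted urea transporter gene with 2 and 5 counts in WT total mRNA at 0 h against 23 and 23 at 6 h, rose there and was called in no other comparison (2.43, SE 0.58, adjusted p = 0.0242). It passed the filter on low counts only through libraries at 6 h, so this p-value is no support for a rise. The calls of put4 reached 0.184 without WT 0 h polysome replicate 1, 0.311 without WT 0 h total replicate 1 and 0.191 without eIF2α.S52A 0 h polysome replicate 1, those of SPAC977.12 0.116 without WT 6 h polysome replicate 2 and 0.250 without WT 6 h total replicate 1, and that of SPAC869.03c 0.137 without WT 6 h total replicate 1.

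SPBPB21E7.04c (cmt2), described as an ortholog of human catechol-O-methyltransferase, had the lowest adjusted p of the members in both fractions of WT cells. It had 1.17 and 1.17 CPM in WT libraries at 0 h, 60.3 and 30.9 in those at 6 h, 1.25 and 2.41 in eIF2α.S52A libraries at 0 h, and 34.1 and 32.4 in those at 6 h in total mRNA. In polysome fractions it had 2.13 and 1.77 CPM in WT libraries at 0 h, 145 and 38.4 in those at 6 h, 4.08 and 3.70 in eIF2α.S52A libraries at 0 h, and 77.8 and 51.3 in those at 6 h. The 6 h libraries did not overlap those of 0 h, and replicate 2 of eIF2α.S52A cells was not set apart in total mRNA. The log2 differences were 5.57 (SE 0.64, edgeR adjusted p = 0.000888) and 5.27 (SE 0.62, adjusted p = 0.00164) in WT cells, which held without each library in turn, and 4.06 (SE 0.60, adjusted p = 0.00468) and 4.14 (SE 0.59, adjusted p = 0.00404) in eIF2α.S52A cells, which reached 0.0528 without eIF2α.S52A 0 h polysome replicate 1 and 0.0929 without eIF2α.S52A 0 h total replicate 1. SPAC869.02c (yhb1), a predicted nitric oxide dioxygenase, rose in WT cells by 2.43 (SE 0.62, adjusted p = 0.0200) and 2.54 (SE 0.62, adjusted p = 0.0233), and had 1.62 and 1.55 in eIF2α.S52A cells (adjusted p = 0.119 and 0.196). The WT calls of SPAC869.02c reached 0.134 without WT 0 h polysome replicate 2 and 0.210 without WT 6 h total replicate 1.

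Genes that rose in WT polysome fractions stood next to each other in 3 stretches of at least 4 genes. No count of such stretches over all genes stands beside these, and whether position plays a part was not tested. On the left end of chromosome II, 10 of the 13 members tested rose. SPAC869.06c, mel1, SPAC869.09, SPBPB21E7.02c, SPBPB21E7.10 and SPBPB2B2.07c, all in these stretches, passed the filter on low counts only through libraries at 6 h. They therefore had to differ, and the stretches rest in part on them. On the right end of chromosome I the stretch was SPAC869.05c, SPAC869.06c, mel1, pcm2 and SPAC869.09, 5 genes in a row. SPAC869.06c (hry1), an HHE domain cation-binding protein, went from 1 count in all at 0 h to 236 at 6 h there, a ratio of 195 (95% interval 34.7 to 7732), and the protein repair methyltransferase gene pcm2 rose by 2.78 (SE 0.68, edgeR adjusted p = 0.0171). SPAC869.09, a conserved fungal protein, rose by 4.66 (SE 1.17, adjusted p = 0.0195). The next gene inward, put4, fell.

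On the left end of chromosome II, SPBPB21E7.02c, SPBPB21E7.10, SPBPB21E7.11 and SPBPB21E7.04c rose in a row, beside eno102, an enolase gene left out by the rule (6.05, SE 0.87, edgeR adjusted p = 0.00238). SPBPB21E7.02c, of the phosphoglycerate mutase family, had 1 count at 0 h and 31 at 6 h in WT polysome fractions, a ratio of 25.6 (95% interval 4.27 to 1044). SPBPB21E7.10 had 1 and 39, a ratio of 32.2 (95% interval 5.45 to 1305). SPBPB21E7.11, a species-specific protein, rose by 4.21 (SE 0.59, adjusted p = 0.00205), a call that held without each library in turn. These intervals cover counting error only.

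On the right end of chromosome II, SPBPB2B2.08, SPBPB2B2.07c, SPBPB2B2.06c and SPBPB2B2.05 rose in a row. SPBPB2B2.07c, a DUF999 gene, had no count at 0 h and 108 at 6 h in WT polysome fractions and was at least 29.7-fold higher there, against a floor of 3 counts over the group. In total mRNA it had 1 and 1 counts in WT libraries at 0 h, 60 and 61 in those at 6 h, 0 and 1 in eIF2α.S52A libraries at 0 h, and 132 and 5 in those at 6 h, with replicate 2 of eIF2α.S52A cells again far below the other 6 h libraries. SPBPB2B2.05, a C26 family peptidase gene, rose by 2.53 (SE 0.63, edgeR adjusted p = 0.0184) in polysome fractions and 2.32 (SE 0.62, adjusted p = 0.0315) in total mRNA of WT cells. Of the genes in these 3 stretches, SPAC869.05c, mel1, SPBPB21E7.04c, SPBPB21E7.11 and SPBPB2B2.06c kept their WT polysome call in all 4 fits without 1 library. pcm2, SPAC869.06c, SPAC869.09, SPBPB21E7.02c, SPBPB21E7.10, SPBPB2B2.07c and SPBPB2B2.05 reached there 0.0982 without WT 0 h polysome replicate 1, 0.0863 without WT 0 h polysome replicate 2, 0.133 without WT 0 h polysome replicate 2, 0.107 without WT 0 h polysome replicate 1, 0.109 without WT 0 h polysome replicate 2, 0.172 without WT 0 h polysome replicate 2 and 0.120 without WT 0 h polysome replicate 1. The call of SPBPB2B2.05 in WT total mRNA was lost without any of its 4 libraries and reached 0.167 without WT 0 h total replicate 1. No stretch of 3 or more genes was called in the other 3 time comparisons, which called fewer genes.

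**Figure D4:**
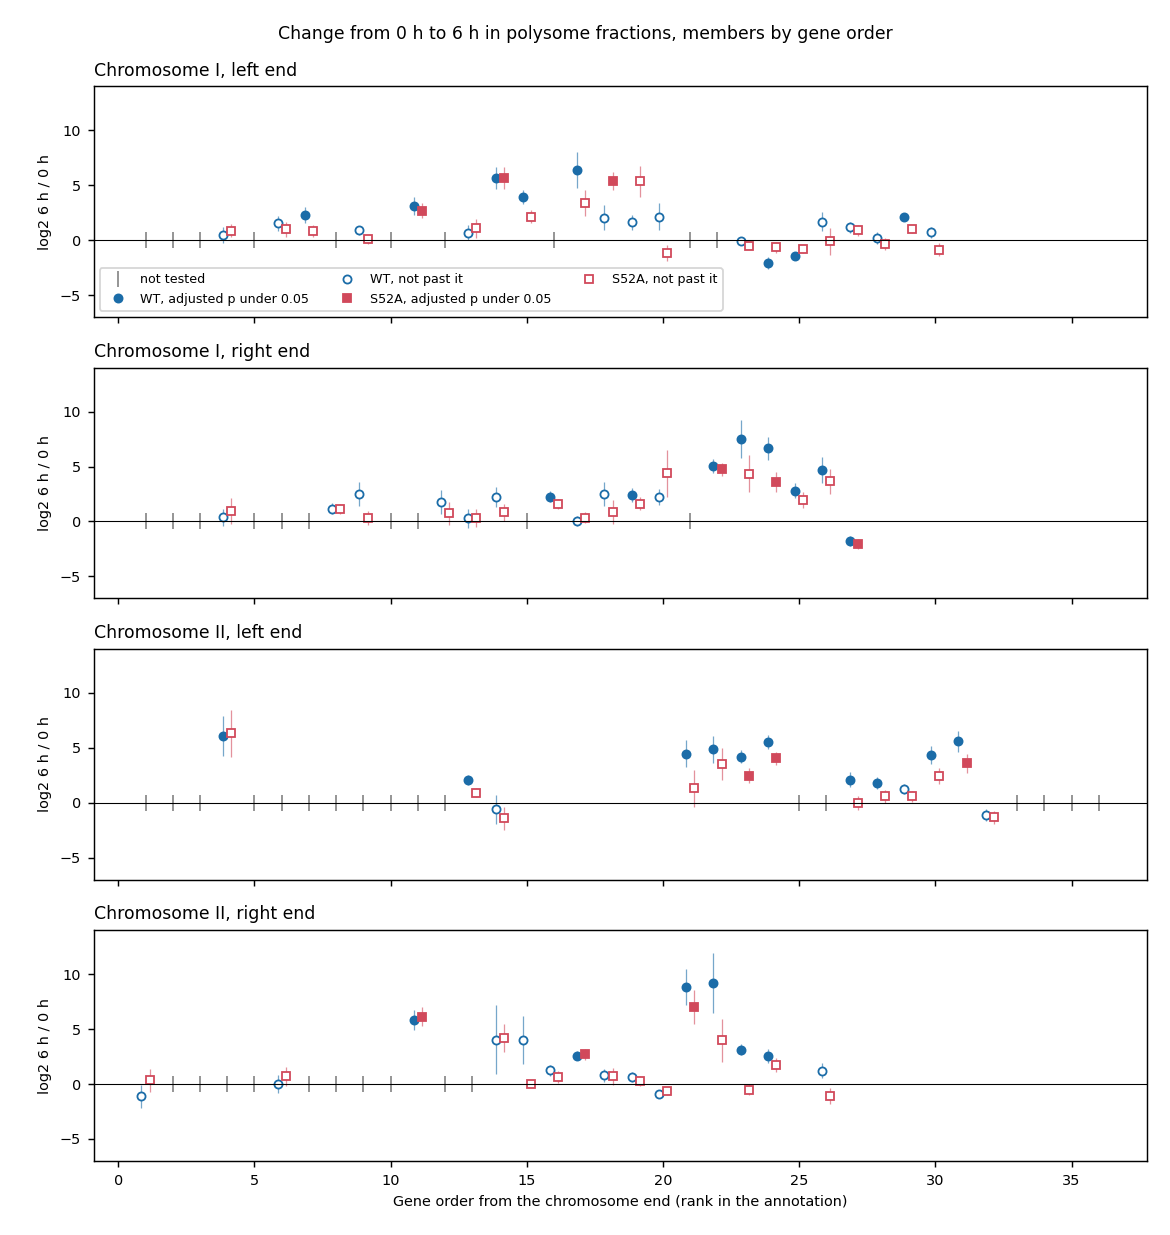
Difference of 6 h against 0 h in polysome fractions (y axis, log2 with its SE) by gene order from each chromosome end (x axis, rank), 1 panel per end. Blue circles are WT and red squares eIF2α.S52A cells, filled where the edgeR adjusted p is under 0.05, and grey ticks are members not tested. Most of the first 10 ranks carry ticks, and filled circles stand in a row at ranks 22 to 26 on the right end of chromosome I and 21 to 24 on both ends of chromosome II.

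Duplicated families rose in part. Among the 4 5Tm genes tested, which code for proteins with several membrane segments, SPAC977.02 (ftm2) rose by 3.94 (SE 0.64, edgeR adjusted p = 0.00377) in polysome fractions and 3.85 (SE 0.60, adjusted p = 0.00509) in total mRNA of WT cells, and by 3.61 (SE 0.60, adjusted p = 0.0103) in eIF2α.S52A total mRNA. SPBC1348.03 (ftm6) had 4 and 0 counts in WT libraries at 0 h, 23 and 24 in those at 6 h, 1 and 1 in eIF2α.S52A libraries at 0 h, and 26 and 32 in those at 6 h in total mRNA, higher in all 6 h libraries, and it rose in total mRNA of WT cells (3.17, SE 0.84, adjusted p = 0.0371) and of eIF2α.S52A cells (4.32, SE 0.93, adjusted p = 0.0403). In WT polysome fractions it had no count at 0 h and was at least 3.58-fold higher at 6 h (adjusted p = 0.0476), and in those of eIF2α.S52A cells it was at least 2.61-fold higher (adjusted p = 0.103, not passing). SPBC1348.03 passed the filter on low counts only through libraries at 6 h. It therefore had to differ, and its p-values are no support for a rise. SPAC977.01 (ftm1) and SPAC750.05c (ftm4) passed in no comparison. Of the 5 DUF999 genes tested, SPBPB2B2.07c alone passed, in WT polysome fractions. The 4 cell surface genes tested (pfl6, pfl9, SPAC212.08c and SPAC212.12) passed in no comparison, although pfl9, of the DIPSY family of adhesins, had 2863 counts in all. The SPAC977.02 call held in WT polysome fractions and reached 0.0506 without WT 0 h total replicate 2 and 0.167 without eIF2α.S52A 0 h total replicate 2, and the calls of SPBC1348.03 reached 0.194 without WT 0 h total replicate 2, 0.318 without eIF2α.S52A 0 h total replicate 2 and 0.193 without WT 0 h polysome replicate 2.

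The telomere-linked helicase genes had few counts. SPAC212.02, given after them, passed the filter on low counts only through libraries at 6 h, so its p-values are no support for a rise. tlh1, at the left end of chromosome I, had 5 counts over the 16 libraries, and tlh2, at the right end of chromosome II, had 2 and 9 counts in WT libraries at 0 h, 4 and 3 in those at 6 h, 16 and 32 in eIF2α.S52A libraries at 0 h, and 4 and 12 in those at 6 h in total mRNA. tlh2 was highest in eIF2α.S52A cells at 0 h, and its strain difference there did not pass (2.30, SE 0.70, edgeR adjusted p = 1). SPAC212.06c, a truncated helicase gene, rose in WT polysome fractions (2.26, SE 0.72, adjusted p = 0.0481), a call that reached 0.319 without WT 0 h polysome replicate 2. SPAC212.02, a species-specific gene near the same end, rose in polysome fractions of both strains, from 3 counts to 32 in WT cells, a ratio of 8.81 (95% interval 2.76 to 44.97), and by 2.69 (SE 0.69, adjusted p = 0.0405) in eIF2α.S52A cells, where it reached 0.169 without eIF2α.S52A 0 h polysome replicate 2. Its call in WT cells reached 0.0953 without WT 0 h polysome replicate 1.

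Several members fell or did not pass. sod2, the sodium/proton antiporter gene, had 74.5 and 80.1 CPM in WT libraries at 0 h, 65.4 and 85.6 in those at 6 h, 71.8 and 65.1 in eIF2α.S52A libraries at 0 h, and 55.9 and 48.00 in those at 6 h in total mRNA, and its time change passed in neither strain. pan5, a pantothenate synthesis gene, had −0.87 and −0.96 in polysome fractions and total mRNA of WT cells, and in eIF2α.S52A cells −0.64 and −0.75. None passed, and all 4 did with the block (0.00725, 0.00519, 0.0434 and 0.0264). SPAC977.11 (fex1), described as a CRCB domain protein, a kind known for fluoride export, fell in WT polysome fractions (−2.08, SE 0.53, edgeR adjusted p = 0.0196), a call that reached 0.163 without WT 6 h polysome replicate 2. The predicted transcription factor gene SPBC1348.12 rose in WT cells by 2.08 (SE 0.42, adjusted p = 0.00867) and 1.31 (SE 0.38, adjusted p = 0.0442), calls that reached 0.0654 without WT 0 h polysome replicate 1 and 0.268 without WT 6 h total replicate 2. Of the genes left out by the rule, cat1 and mug180 passed in no comparison.

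Among the other members, SPBPB21E7.08, a pseudogene in the annotation that still had 39085 counts in all, had 135 and 53.1 CPM in WT libraries at 0 h, 246 and 171 in those at 6 h, 197 and 79.6 in eIF2α.S52A libraries at 0 h, and 212 and 159 in those at 6 h in total mRNA. It rose in WT polysome fractions (1.80, SE 0.57, edgeR adjusted p = 0.0486), and of the 13 pseudogenes 3 were tested and no other was called. SPAC977.04, the truncated end of a transporter gene, had no count at 0 h in WT polysome fractions and was at least 4.41-fold higher at 6 h (adjusted p = 0.0230). It passed the filter on low counts only through libraries at 6 h, so its p-value is no support for a rise. SPAC186.02c, a predicted hydroxyacid dehydrogenase gene, rose by 2.25 (SE 0.48, adjusted p = 0.0109) in WT polysome fractions. These calls reached 0.238 without WT 0 h polysome replicate 2, 0.131 without WT 0 h polysome replicate 2 and 0.0740 without WT 0 h polysome replicate 2. Over the 17 transporter genes listed, 10 were tested, of which 3 rose and 1 fell in WT polysome fractions. SPAC977.17, a predicted MIP water channel gene with 4484 counts, the TMEM165 homologue SPAC186.05c (gdt1), the nucleotide-sugar dehydratase gene SPBPB2B2.11 (tgd1), the amino acid transporter gene SPBPB2B2.01 (nrg1), the dienelactone hydrolase family gene SPAC977.15 and the DUF999 gene SPAC212.04c were each tested and passed in no comparison. Beside SPBPB21E7.08 the leading gene of each cosmid by counts was SPAC212.04c, SPAC977.14c, SPAC750.01, gdt1, SPAC869.05c, SPBC1348.12, SPBPB10D8.02c, SPBPB2B2.08 and SPBCPT2R1.04c, a DUF999 gene with 173 counts.

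At 0 h no member passed the test between the strains, whether in polysome fractions or in total mRNA by edgeR, DESeq2 or with the block. At an unadjusted edgeR p under 0.05 there were 8 and 6 of the 65 members tested, beside 550 and 126 of all 6170 genes tested. After adjustment, 0 and 0.0162% of all genes tested were called. The median of the members was nevertheless on the side of eIF2α.S52A cells, at 0.64 in polysome fractions and 0.56 in total mRNA, against 0.03 and −0.01 over all genes tested (0.56 and 0.50 with bounds). Experiment A gave medians of 0.31 and 0.18, and experiment B 0.56 and 0.72, for log2 ratios of CPM + 0.1.

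At 6 h 2 members passed in each fraction, where 0.924% of all genes were called in polysome fractions and 0.519% in total mRNA. With the experiment as a block these were 6 and 5 members, beside 229 and 98 of all genes tested. Without the block 57 and 32 of all genes were called. With library size as the sole scaling 1 member was higher and 7 were lower in polysome fractions, and 1 was higher in total mRNA. No number over all genes is given for that scaling, so these counts have no background. Of the polysome calls 1 was left when replicate 2 of either strain was dropped, and 4 were made when replicate 1 of eIF2α.S52A cells was dropped. In total mRNA no call was left when either WT replicate or replicate 2 of eIF2α.S52A cells was dropped, and 1 when their replicate 1 was. SPAC977.05c, of a conserved fungal family, was higher in eIF2α.S52A cells in both. It had 2 and 1 counts in WT libraries at 0 h, 12 and 14 in those at 6 h, 3 and 4 in eIF2α.S52A libraries at 0 h, and 96 and 316 in those at 6 h in total mRNA. In polysome fractions it had 2 and 2 counts in WT libraries at 0 h, 14 and 6 in those at 6 h, 1 and 11 in eIF2α.S52A libraries at 0 h, and 196 and 558 in those at 6 h. The eIF2α.S52A libraries at 6 h lay far above all others, replicate 2 above replicate 1, whereas WT cells had few counts at both times. The strain difference was 5.53 (SE 0.78, edgeR adjusted p = 0.00759) in polysome fractions and 4.07 (SE 0.74, adjusted p = 0.0331) in total mRNA. In eIF2α.S52A cells it rose with time by 5.42 (SE 0.82, adjusted p = 0.00483) and 5.47 (SE 0.86, adjusted p = 0.00809), and in WT cells its values were 2.03 in polysome fractions and 7.32 (95% interval 2.24 to 37.8) as a ratio of 26 to 3 counts in total mRNA, neither past the test. SPAC977.05c passed the filter on low counts only through libraries at 6 h, so the p-values of its time change are no support for a rise. The difference between the time changes did not pass, at 3.39 (SE 1.66, adjusted p = 0.848) in polysome fractions and 2.74 (SE 1.85, adjusted p = 0.999) in total mRNA. The strain calls reached 0.102 without WT 6 h polysome replicate 2 and 0.324 without eIF2α.S52A 6 h total replicate 2, and without the 6 h replicate 2 of eIF2α.S52A cells they stood at 0.0408 and 0.324. The time calls reached 0.0528 without eIF2α.S52A 0 h polysome replicate 1 and 0.145 without eIF2α.S52A 0 h total replicate 2.

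The other 2 genes of this family stood at other chromosome ends and were counted at lower levels. SPBPB2B2.15 had 0 and 2 counts in WT libraries at 0 h, 0 and 1 in those at 6 h, 0 and 0 in eIF2α.S52A libraries at 0 h, and 7 and 35 in those at 6 h in total mRNA. In polysome fractions it had 0 and 0 counts in WT libraries at 0 h, 2 and 1 in those at 6 h, 1 and 1 in eIF2α.S52A libraries at 0 h, and 11 and 48 in those at 6 h. Only the eIF2α.S52A libraries at 6 h had more than 2 counts, and replicate 2 had the most. SPBPB2B2.15 passed the filter on low counts through these libraries alone. It therefore had to differ between the strains at 6 h, and the p-values that follow are no support for a difference. The ratio of strains at 6 h was 25.2 (95% interval 8.22 to 126) in polysome fractions and 45.3 (95% interval 7.70 to 1833) in total mRNA, and neither passed (adjusted p = 0.0869 and 0.183), though both did with the block (0.0228 and 0.0353). SPBC1348.06c, too low to be tested, had 11 and 2 counts in eIF2α.S52A polysome fractions at 6 h and 0 to 3 in every other library. Reads of these 3 genes cannot be told apart if the copies are near-identical.

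Of the 5 M cell genes, mfm2, which codes for a pheromone, was lower in eIF2α.S52A cells at 6 h in polysome fractions (−3.20, SE 0.52, adjusted p = 0.0148) and total mRNA (−3.15, SE 0.47, adjusted p = 0.0196), and mam1, a pheromone exporter gene, in polysome fractions alone (−1.24, SE 0.25, adjusted p = 0.0443). On polysomes mfm1 had −3.0, mam2 −1.46 and mfm3 0.77, and in total mRNA they had −2.92, −1.56 and 0.42, none past the test. The value of mam1 in total mRNA was −1.19, which did not pass. The part of these genes in the strain differences of the members was not tested. The members lower in eIF2α.S52A cells at 6 h were SPBPB2B2.06c in polysome fractions and dak2 in total mRNA. SPBPB2B2.06c, a predicted phosphatase gene, had 7.46 and 9.35 CPM in WT libraries at 0 h, 114 and 34.96 in those at 6 h, 16.5 and 18.6 in eIF2α.S52A libraries at 0 h, and 12.8 and 11.7 in those at 6 h in polysome fractions. In total mRNA it had 6.73 and 12.96 CPM in WT libraries at 0 h, 63.2 and 38.7 in those at 6 h, 12.4 and 21.2 in eIF2α.S52A libraries at 0 h, and 9.66 and 13.6 in those at 6 h. Both WT libraries at 6 h lay above all others, and the eIF2α.S52A libraries stayed within the range of 0 h or near it at both times. It rose in WT cells by 3.13 (SE 0.53, edgeR adjusted p = 0.00419) and 2.37 (SE 0.50, adjusted p = 0.0153), and its values in eIF2α.S52A cells were −0.52 and −0.54. The strain difference at 6 h was −2.60 (SE 0.51, adjusted p = 0.0404) in polysome fractions and −2.13 (SE 0.50, adjusted p = 0.0962) in total mRNA. The difference between the time changes in polysome fractions was −3.66 (SE 0.73, adjusted p = 0.369), which did not pass here but did with DESeq2 (adjusted p = 0.000999). The strain call reached 0.134 without WT 6 h polysome replicate 1 and stood at 0.133 without eIF2α.S52A 6 h replicate 2, and the rise in WT total mRNA reached 0.129 without WT 6 h total replicate 1.

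dak2 had 6.17 and 10.5 CPM in WT libraries at 0 h, 47.1 and 58.4 in those at 6 h, 3.42 and 6.54 in eIF2α.S52A libraries at 0 h, and 15.5 and 15.04 in those at 6 h in total mRNA. The strains did not overlap at 6 h, and replicates 1 and 2 of eIF2α.S52A cells were alike there. Its strain difference at 6 h was −1.79 (SE 0.35, edgeR adjusted p = 0.0462) in total mRNA and −1.59 (SE 0.35, adjusted p = 0.0566) in polysome fractions, and the latter passed with the block (0.00531). The call in total mRNA was lost without any of the 4 libraries, with 0.382 without eIF2α.S52A 6 h total replicate 2 as the highest.

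aes1, a gene named as an enhancer of RNA-mediated silencing, followed a similar course without a passing strain difference. It had 83.3 and 24.1 CPM in WT libraries at 0 h, 170.5 and 292 in those at 6 h, 67.99 and 48.4 in eIF2α.S52A libraries at 0 h, and 67.4 and 48.7 in those at 6 h in polysome fractions. WT cells were highest at 6 h, and all eIF2α.S52A libraries lay within the range of WT cells at 0 h. It rose in WT cells by 2.11 (SE 0.64, edgeR adjusted p = 0.0415) and 2.22 (SE 0.64, adjusted p = 0.0441), and passed in neither fraction of eIF2α.S52A cells. The strain differences at 6 h came to −1.99 (SE 0.64, adjusted p = 0.133) and −2.11 (SE 0.64, adjusted p = 0.199). SPBPB21E7.11, close to it on the same end, was −2.12 and −2.09 at 6 h (adjusted p = 0.0714 and 0.103, and 0.0258 and 0.0275 with the block). The WT calls of aes1 reached 0.204 without WT 0 h polysome replicate 2 and 0.267 without WT 0 h total replicate 2.

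**Figure D5:**
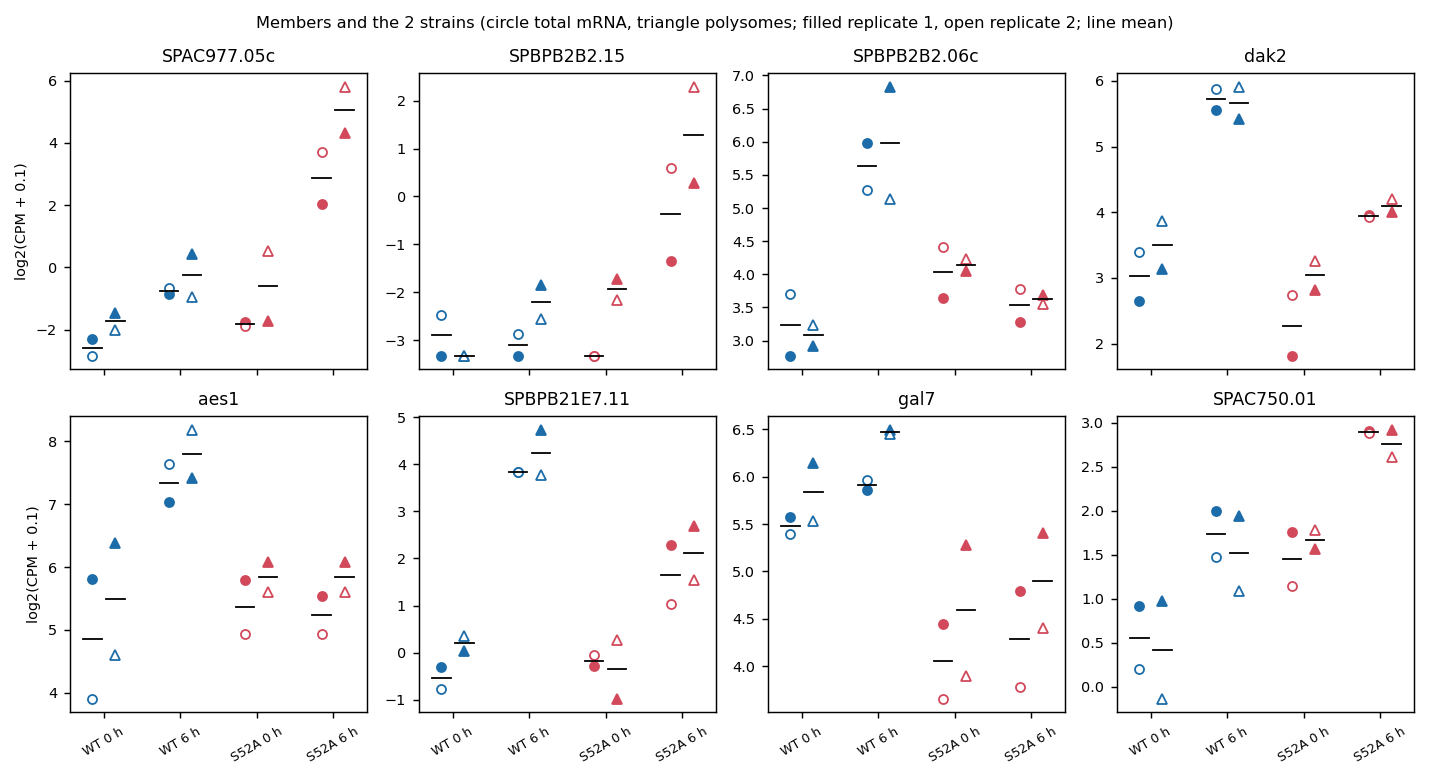
Level of 8 members in both strains (panels), as log2(CPM + 0.1) on the y axis of each panel, by strain and time on the x axis. Circles are total mRNA and triangles polysome fractions, filled for replicate 1 and open for replicate 2, and lines are means of 2. SPAC977.05c and SPBPB2B2.15 are high in eIF2α.S52A cells at 6 h alone, SPBPB2B2.06c and aes1 are highest in WT cells at 6 h, and gal7 is lower in eIF2α.S52A cells at both times.

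gal7 and gal10 were at lower levels in eIF2α.S52A cells at both times, without passing the test. gal7 had 47.7 and 41.9 CPM in WT libraries at 0 h, 57.98 and 62.3 in those at 6 h, 21.8 and 12.5 in eIF2α.S52A libraries at 0 h, and 27.7 and 13.6 in those at 6 h in total mRNA. In polysome fractions it had 70.6 and 46.1 CPM in WT libraries at 0 h, 90.2 and 87.6 in those at 6 h, 38.8 and 14.8 in eIF2α.S52A libraries at 0 h, and 42.2 and 21.1 in those at 6 h. The strains did not overlap in any of the 4 sets of libraries. The strain differences of gal7 were −1.39 (SE 0.47, edgeR adjusted p = 1) and −1.54 (SE 0.47, adjusted p = 0.199) in total mRNA at 0 h and 6 h and −1.14 (SE 0.48, adjusted p = 0.552) and −1.49 (SE 0.47, adjusted p = 0.130) in polysome fractions. None passed, and those at 6 h did with the block (0.0271 and 0.0258). For gal10 they were −1.39, −1.34, −1.59 and −1.47, with adjusted p of 1, 0.194, 0.461 and 0.0979. gal1, the third gene of the cluster, had 14.3 and 15.99 CPM in WT libraries at 0 h, 13.3 and 34.4 in those at 6 h, 15.3 and 16.6 in eIF2α.S52A libraries at 0 h, and 10.7 and 13.1 in those at 6 h in total mRNA, its strains overlapped at 0 h, and it passed in no comparison.

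Besides gal7 and gal10, sod2 had all eIF2α.S52A libraries below the WT libraries of the same time and fraction, 3 of 65 members (4.62%) against 1.6% of all genes tested. The opposite held for 4 members (6.15%, against 2.12% of all genes): pdc102, SPAC212.06c, SPAC212.08c and the aldo/keto reductase gene SPAC750.01, all on chromosome I. SPAC750.01 had 1.79 and 1.05 CPM in WT libraries at 0 h, 3.90 and 2.69 in those at 6 h, 3.29 and 2.11 in eIF2α.S52A libraries at 0 h, and 7.37 and 7.26 in those at 6 h in total mRNA. Its strain differences were 0.92 and 1.15 there and 1.29 and 1.23 in polysome fractions, none past the test (lowest adjusted p = 0.158). None of the 3 others passed either. pdc102 passed the filter on low counts only through eIF2α.S52A libraries at 6 h, so its order at 6 h was in part fixed by the filter. The 4 comparisons share no libraries, but they come from the same 2 experiments, so they are not independent.

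No difference of the time changes between the strains passed. No member passed for the difference of the time changes in polysome fractions or in total mRNA by edgeR. No gene of the 6170 passed either (0% of all genes). At an unadjusted edgeR p under 0.05 there were 4 and 5 of the 65 members, beside 345 and 146 of all genes tested. DESeq2 called 1 member in polysome fractions, SPBPB2B2.06c, and none in total mRNA, beside 23 and 1 of all genes tested. The medians were −0.80 and −0.58, against 0.02 and −0.01 over all genes tested, with 47 of 65 members below 0 in each. Both changes come from the 2 replicates of a strain, and the number of members called in WT and in eIF2α.S52A cells is not a test of that difference.

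No member passed for a change in its share on polysomes. A change in translation efficiency (TE) was tested as the time change in polysome fractions relative to that in total mRNA. It passed for no member in WT or in eIF2α.S52A cells by edgeR or DESeq2, and edgeR called 0.0162 and 0% of all genes. At an unadjusted edgeR p under 0.05 there were 1 and 0 members, beside 156 and 99 of all 6170 genes tested. The medians of the members were 0.29 and 0.07, against 0.02 and 0.01. With TMM scaling these are changes relative to other genes.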

How the data were processed

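Poly(A) RNA of total and polysome fractions was sequenced in 16 libraries. Per the methods of the study, the authors aligned and sorted reads with STAR (ASM294v2), indexed the alignments with SAMtools and obtained stranded gene counts with QoRTs; their versions were not given in the sources used here. Deposited raw counts were used. A second deposited table of counts that the authors scaled with DESeq2 size factors was not used. Counts of multigene families depend on how reads matching several copies were treated.

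Counts were fitted with edgeR 4.0.16 (limma 3.58.1, R 4.3.3) in 1 quasi-likelihood model of 8 groups after filterByExpr (6170 of 7014 genes) and TMM scaling (factors 0.434 to 1.69). The 12 comparisons were Benjamini-Hochberg adjusted over all genes tested, with a call under 0.05 and 8 residual degrees of freedom; the common dispersion was 0.0585. CPM use effective library sizes. A gene at 0 in a group was set against a floor of 3 counts, and ratios with 1 to 3 counts have exact 95% intervals that cover counting error only, as reads are not independent molecules. The model was tested on data simulated for the time change in WT polysome fractions over 6170 genes. It called 23 of 100 genes changed 2-fold and 84 of 100 changed 4-fold, with 3 false calls. The simulated libraries were drawn independently from the fitted spread, with no shared experiment effect and no library that stood apart. The number of false calls therefore does not carry over to the calls in the real libraries.

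Replicate numbers mark a shared experiment in the labels, and 22 of 28 pairs of groups had deviations correlated over 0.1 (median r 0.264, range −0.0898 to 0.578). The labels do not say whether replicates are separate cultures, so p-values measure the spread between these samples. Alternatives were DESeq2 1.42.0, scaling by library size alone, no filter, the experiment as a block and leaving out each library.

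Named were members with a symbol, up to 8 called members per direction with the largest differences of the same sign in both experiments, called members of the role lists and the leading members of each cosmid; members and lists were chosen with earlier results of these data known. Names, biotypes and gene order came from RefSeq (ASM294v3, matched by locus tag for all 112), a later build, so no coordinates are given. No sequence is shown.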

Additional observations from a re-analysis of the deposited data

How the results depend on the processing

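Several counts of members called depended on the processing, and the cause was not tested. For the time change in eIF2α.S52A polysome fractions the 12 calls became 19 with DESeq2, 29 with scaling by library size alone and 19 with the replicate block. For their total mRNA the 11 calls became 22 with DESeq2 and 20 with the block. For the strain difference at 6 h the 2 calls in polysome fractions became 10 with DESeq2, 8 with library size alone and 6 with the block, and the 2 in total mRNA became 5, 1 and 5. Over all genes tested the 57 calls in polysome fractions became 383 with DESeq2 and 229 with the block, and the 32 in total mRNA became 184 and 98. Numbers over all genes with library size alone are not given. The difference of the time changes in polysome fractions had 1 call with DESeq2 against 0, beside 23 against 0 over all genes tested. Without 1 library, calls ranged from 13 to 18 and 1 to 18 for the time change in WT and eIF2α.S52A polysome fractions, from 2 to 13 and 0 to 14 in total mRNA, and from 1 to 4 and 0 to 1 for the strain difference at 6 h in polysome fractions and total mRNA. With 1 library left in a group, its spread is taken from the other groups. The other counts stayed within 1.5 times, and those of 0 stayed 0, under the alternatives run, the omission of the filter included. Scaling by library size alone shifted the median log2 difference of all genes by 0.51 and 0.59 for the time change in polysome fractions of WT and eIF2α.S52A cells, 0.22 and 0.14 in total mRNA, −0.43 and −0.35 for the strain difference in polysome fractions at 0 h and 6 h, −0.11 in total mRNA at 6 h, and 0.28 and 0.45 for TE, and TMM values are relative to those shifts. The direction of single values turned for SPBPB2B2.06c in eIF2α.S52A polysome fractions (0.065 with library size alone) and for SPAC977.12 in eIF2α.S52A total mRNA (−0.90 to 0.15 without 1 library, the highest without 6 h replicate 1), neither of them called. Of the 130 single values, 5 lost their call with DESeq2, 3 with library size alone, 2 without the filter and 0 with the block. Members with under about 100 counts in all are limited by depth.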

Other observations

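Genes that act in silencing and telomere upkeep, which are not members, were listed beside the clusters. Of 49 genes of heterochromatin, RNA interference, shelterin and telomerase, all were tested. In WT cells 1 rose and 2 fell in polysome fractions, and 2 fell in total mRNA, shares below those of all genes tested (8.57 and 8.9% in polysome fractions, 6.0 and 6.01% in total mRNA). In total mRNA swi6, the heterochromatin protein gene, differed by −0.66 (SE 0.19, adjusted p = 0.0429) (edgeR) between 6 h and 0 h, and rif1, a telomere-bound regulator of replication, by −0.68 (SE 0.21, adjusted p = 0.0498). In polysome fractions ter1, the RNA of telomerase, differed by −1.22 (SE 0.30, adjusted p = 0.0186), the shelterin gene ccq1 by 0.66 (SE 0.18, adjusted p = 0.0276) and raf2, of the Clr4 complex, by −0.62 (SE 0.20, adjusted p = 0.0488). In eIF2α.S52A polysome fractions 3 rose and 2 fell, where 3.4 and 3.58% of all genes did. These were bqt3 (0.91, SE 0.23, adjusted p = 0.0412), red1 (0.80, SE 0.18, adjusted p = 0.0263), taz1 (0.75, SE 0.17, adjusted p = 0.0297), ter1 (−1.21, SE 0.32, adjusted p = 0.0438) and clr2 (−0.85, SE 0.22, adjusted p = 0.0430). None passed in eIF2α.S52A total mRNA or between the strains at either time in edgeR. The median log2 difference over the list was −0.04 in WT polysome fractions, 0.21 in eIF2α.S52A polysome fractions, −0.10 in WT total mRNA and −0.03 in eIF2α.S52A total mRNA.

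Some members too low to be tested had counts in few groups. SPBPB21E7.06, a pseudogene, had no count in WT total mRNA at 0 h and 22 at 6 h, at least 6.19-fold higher at 6 h than the floor, and no count in eIF2α.S52A total mRNA at 6 h. SPBC1348.02, a 5Tm gene (ftm5), had 1 count in WT total mRNA at 0 h and 17 at 6 h, a ratio of 14.4 (95% interval 2.25 to 599.8), and 3 and 13 in eIF2α.S52A cells, a ratio of 3.42 (95% interval 0.940 to 18.7). SPAC186.08c, a predicted lactate dehydrogenase gene, had 17 counts in eIF2α.S52A total mRNA at 6 h and 1 in that of WT cells, a ratio of 18.4 (95% interval 2.88 to 767). These ratios were picked after the counts were seen and have counting error only.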
